A study of Mus musculus with 2 samples.

Results

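The immediate early genes described here are 10 genes of the first transcriptional response to a stimulus: Fos, Fosb, Jun, Junb, Jund, Egr1, Atf3, Ier2, Ier3 and Dusp1. They were chosen by name, and each matched a single gene among the 43346 mouse genes in the deposited tables. The tissue was lung of the mouse strain B6NCrl on the day of birth (P0), and the labels name no treatment and no altered gene. Total RNA longer than 200 nt was sequenced from the 2 lungs of each of 2 pups, pup 1 and pup 3 of the same pregnancy, at 10 ng per library. Both libraries carry the same donor identifier, so that n = 2 rests on the pup numbers, and sex was not recorded. The libraries form 1 group, so that levels and the difference between the pups can be described, without a comparison of conditions.

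Immediate early genes are transcribed within minutes of a signal, from promoters already poised for it and without new protein synthesis. Growth factors, stretch, cytokines and cell stress reach them through MAP kinases, which act on serum response factor with its ternary complex partners and on CREB, and the handling of tissue is a known trigger as well. Fos and Jun proteins dimerise through basic leucine zippers into the transcription factor AP-1, EGR1 binds GC-rich sites through zinc fingers, and DUSP1 dephosphorylates the kinases that started the response. Many of the mRNAs carry AU-rich elements in the 3′ UTR that speed their decay, so a steady level reflects both synthesis and loss. In lung, AP-1 and EGR1 are known from epithelial injury, stretch and smooth muscle responses.

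Both libraries carried lung RNA. Expected counts, which are estimated read counts that need not be whole, summed over genes to 42189536 in pup 1 and 37026165 in pup 3. All 9 lung markers stood above 1 TPM, a transcript level corrected for length and scaled to the same total in each library, in both pups. Sftpc, which encodes a surfactant protein of alveolar type II cells, had 77317 TPM in pup 1 and 68981 TPM in pup 3, and Ager, a marker of alveolar type I cells, had 3328 and 3579 TPM. The heart atrial gene Myl7 was also present, at 288 TPM in pup 1 and 358 TPM in pup 3. Because whole lung was sequenced, few cells with much of a transcript and many cells with little of it cannot be told apart.

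Of the 10 genes, 8 (all but Egr1 and Ier2) matched RefSeq promoter windows on GRCm38.p6 from 250 bases before to 50 bases after the start site. These are shown for Fos, for its close relative Fosb, which had the lowest level, for Junb, which differed between the pups, and for Dusp1, the gene with the complete cyclic AMP response element. The windows are chr12:85473640-85473939 on the plus strand for Fos, and on the minus strand chr7:19309996-19310295 for Fosb, chr8:84978699-84978998 for Junb and chr17:26508423-26508722 for Dusp1. Capitals mark every match on either strand to the motifs named after the sequences.
Fos: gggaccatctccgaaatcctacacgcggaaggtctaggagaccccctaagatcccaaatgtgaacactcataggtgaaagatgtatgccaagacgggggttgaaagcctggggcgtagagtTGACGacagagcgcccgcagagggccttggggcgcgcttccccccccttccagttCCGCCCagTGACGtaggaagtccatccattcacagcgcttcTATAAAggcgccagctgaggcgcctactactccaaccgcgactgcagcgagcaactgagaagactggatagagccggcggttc
Fosb: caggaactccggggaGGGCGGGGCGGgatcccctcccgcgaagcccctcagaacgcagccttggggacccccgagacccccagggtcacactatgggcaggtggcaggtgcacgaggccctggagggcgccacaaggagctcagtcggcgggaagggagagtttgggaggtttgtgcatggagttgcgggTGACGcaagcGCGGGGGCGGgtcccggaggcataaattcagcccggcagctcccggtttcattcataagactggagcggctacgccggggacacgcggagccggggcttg
Junb: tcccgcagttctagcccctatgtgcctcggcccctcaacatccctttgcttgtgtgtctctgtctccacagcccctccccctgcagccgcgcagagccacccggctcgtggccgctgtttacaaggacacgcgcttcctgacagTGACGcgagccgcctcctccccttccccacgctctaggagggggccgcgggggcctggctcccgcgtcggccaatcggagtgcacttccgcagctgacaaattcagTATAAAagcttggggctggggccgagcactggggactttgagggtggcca
Dusp1: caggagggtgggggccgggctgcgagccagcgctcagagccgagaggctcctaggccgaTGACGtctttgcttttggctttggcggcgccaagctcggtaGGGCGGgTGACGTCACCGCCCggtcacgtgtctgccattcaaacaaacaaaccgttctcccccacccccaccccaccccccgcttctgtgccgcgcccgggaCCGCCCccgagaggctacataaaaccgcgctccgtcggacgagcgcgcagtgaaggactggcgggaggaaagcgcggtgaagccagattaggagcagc

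The cyclic AMP response element (CRE), the site of CREB and ATF proteins, reads TGACGTCA in full and TGACG as its core. The core was present in 5 of the 8 windows, against 20.8% of all 32851 RefSeq windows of that length, and the full element was present only in Dusp1, against 1.79% of all windows. In Fos the core began at -129 and -66 from the start site, in Fosb at -60 and in Junb at -106. In Dusp1 it began at -191, and the full element at -143 holds a core on each strand. Atf3 had a core at -7, on the minus strand. The TATA box (TATAAA) was found in Fos at -33 and in Junb at 0, against 13.6% of all windows. The leading Junb transcript of GENCODE M21 starts 30 bases downstream of the RefSeq start, which puts that match 30 bases ahead of it. The M21 transcript of Jund starts 1210 bases downstream of the RefSeq start, so the Jund window lies wholly upstream of that transcript. The window's lack of matches and its GC content say nothing of the sequence at the M21 start. The Jund model of the tables is longer, at 2878 bases against 1668 in M21. The lengths differ by the same 1210 bases as the starts. If both models end at the same base, the window stands at the start of the longer model, which was the one counted. The end of that model was not examined. The GC box of SP1 (GGGCGG) was found in 6 of the 8 windows, all but Junb and Jund, against 35.7% of all windows. Fosb held the only EGR site (GCGNGGGCG, with G or T at N), at -50 and overlapping a GC box, against 3.47% of all windows. No member window matched the AP-1 site (TGANTCA, with G or C at N), the ETS site (CCGGAA) or the CArG box of serum response factor, which 5.20%, 14.9% and 1.63% of all windows matched. The absence concerns these letters in 300 bases only. GC content ran from 46.7% in the Jund window to 68.3% in that of Fosb, with a median of 62.3%, against a median of 52.7% over all windows. The motif shares over all windows were not matched for this difference, and its part in them was not tested.

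**Figure D1:**
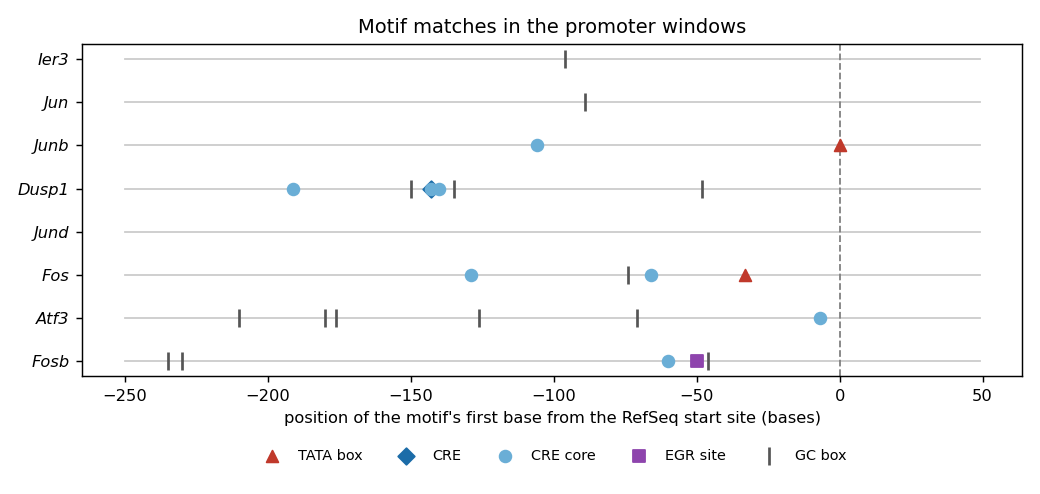
Position of each motif match (horizontal axis, bases from the RefSeq start site at 0) in the promoter windows of 8 immediate early genes, ordered by level. CRE cores (circles) lie in Junb, Dusp1, Fos, Atf3 and Fosb, the full CRE (diamond, beneath 2 circles) in Dusp1. The Jund window, which has no match, lies upstream of the M21 transcript, whose start is 1210 bases further on. It would stand at the start of the longer counted model if both models end at the same base.

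The 3′ UTRs were searched for the AU-rich pentamer ATTTA and the nonamer TTATTTATT, on the strand of the mRNA, in the leading coding transcript of each gene in GENCODE M21. For the 4 genes with the most pentamers, the stretch of 30 bases with the most of its letters in such motifs is shown with the motifs in capitals. These lie at chr12:85477102-85477131 on the plus strand for Fos, chr17:26506157-26506186 on the minus strand for Dusp1, chr17:35822493-35822522 on the plus strand for Ier3 and chr4:95049207-95049236 on the minus strand for Jun (mm10).
Fos: gtgttttcaATTTATTTATTaagatggatt
Dusp1: agctggtccTTATTTATTTAacacccccct
Ier3: ATTTAtgtATTTAtgtatatcctcctaggt
Jun: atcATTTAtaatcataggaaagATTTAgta

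The pentamer occurred in the 3′ UTR of 9 of the 10 genes, all but Ier2, against 59.2% of 19437 UTRs. The nonamer occurred in Fos, at 1 place, and in Dusp1, at 2 places, against 6.24% of all UTRs. Ier3 held 5 pentamers in 613 bases, a number that 2.66% of UTRs within 20% of its length reached. Dusp1 held 4 in 690 bases (8.73% of UTRs of like length) and Fos 4 in 815 bases (11.3%). At the other end stood Ier2, with none, and Fosb, with 1 pentamer in 2145 bases, a number that 91.9% of UTRs of like length reached. The members' median density was 2.89 pentamers per 1000 bases, against 1.01 over all UTRs, and 21.8% of all UTRs were at or above it. The densest UTRs were those of Ier3, which had the highest level of the 10, and of Dusp1 and Fos, which stood in the middle of the order of levels.

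Of the Fos family, which supplies the AP-1 partner that pairs poorly with itself, Fos was the main transcript and Fosb was close to undetected. Fos (ENSMUSG00000021250.9, chromosome 12, 85473890 to 85477273, plus strand, 4 exons) stood at 28.9 TPM in pup 1 and 27.3 TPM in pup 3, from 1824 and 1499 expected counts. Its mean of 28.1 ± 1.16 TPM (SD, n = 2) ranked 4436 among protein-coding genes, within the top 20.7%. Fosb (ENSMUSG00000003545.2, chromosome 7, 19302696 to 19310051, minus strand, 4 exons) had 0.14 TPM in pup 1 and 0.35 TPM in pup 3, from 16 and 35 expected counts. It was the only member under 1 TPM, in both pups, and its counts exceeded the 3 counts that a count of 0 allows (0.0711 CPM in pup 1 and 0.0810 CPM in pup 3, where CPM is the count scaled to the library total). The related Fosl2 had 6.36 and 7.47 TPM, and Fosl1 0.40 and 0.61 TPM.

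All 3 Jun genes, whose proteins can form AP-1 with a Fos protein or with each other, were expressed above Fos. Jun (ENSMUSG00000052684.4, chromosome 4, 95049034 to 95052222, minus strand), the transcription factor c-Jun that JNK phosphorylates, had 127 TPM in pup 1 and 139 TPM in pup 3, a mean of 133 ± 8.52 TPM. Junb (ENSMUSG00000052837.5, chromosome 8, 84974484 to 84978718, minus strand), whose protein can oppose c-Jun at some promoters, had 59.6 TPM in pup 1 and 109 TPM in pup 3, a mean of 84.4 ± 35.1 TPM and the widest SD of the 10. Jund (ENSMUSG00000071076.5, chromosome 8, 70698949 to 70700616, plus strand), which many cells express without a stimulus, had 45.9 TPM in pup 1 and 45.1 TPM in pup 3, a mean of 45.5 ± 0.587 TPM. Jun and Jund therefore lay close between the pups, whereas Junb lay apart. The leading transcript of each Jun gene, and of Ier2, is a single exon. Every annotated model was a single exon for Jun, Jund and Ier2, 3 of the 10 genes, against 6.06% of protein-coding genes (1331 of 21951).

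Added over the family, Jun transcripts outnumbered Fos transcripts in both pups. Jun, Junb and Jund summed to 233 TPM in pup 1 and 294 TPM in pup 3, and Fos, Fosb, Fosl1 and Fosl2 to 35.8 and 35.7 TPM. The ratio of Jun to Fos transcripts was 6.50 in pup 1 and 8.23 in pup 3, a mean of 7.36 ± 1.22 (n = 2). Within the Jun sum, Jun held 54.7% in pup 1 and 47.5% in pup 3, Junb 25.6% and 37.2%, and Jund 19.7% and 15.4%. The order of Jun and Junb in that sum was the same in both pups, with a smaller gap in pup 3. Fos held 80.7% of the Fos sum in pup 1 and 76.4% in pup 3. These are shares of mRNA, and the proteins that form AP-1 were not measured.

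Atf3 and Egr1, both transcription factors that stress induces strongly in many tissues, were low. Atf3 (ENSMUSG00000026628.9, chromosome 1, 191170296 to 191218039, minus strand), a leucine zipper protein that often represses its targets, had 7.25 TPM in pup 1 and 7.34 TPM in pup 3. Egr1 (ENSMUSG00000038418.7, chromosome 18, 34859823 to 34864984, plus strand) had 4.35 TPM in pup 1 and 6.61 TPM in pup 3, from 439 and 561 expected counts. They ranked 9135 and 9954 among protein-coding genes, near the middle of the list.

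Ier2 and Ier3, which are named for the immediate early response but are not AP-1 subunits, were among the 3 highest. Ier3 (ENSMUSG00000003541.6, chromosome 17, 35821684 to 35822923, plus strand, 2 exons), a regulator of cell survival, had 180 TPM in pup 1 and 207 TPM in pup 3, a mean of 193 ± 18.9 TPM and rank 689, within the top 3.21% of protein-coding genes. Ier2 (ENSMUSG00000053560.4, chromosome 8, 84661331 to 84662852, minus strand), a nuclear protein linked to transcription, had 99.3 TPM in pup 1 and 124 TPM in pup 3, a mean of 112 ± 17.5 TPM. Both therefore had higher values in pup 3. Dusp1 (ENSMUSG00000024190.6, chromosome 17, 26505590 to 26562128, minus strand), the phosphatase that switches off p38, JNK and ERK, had 69.7 TPM in pup 1 and 60.5 TPM in pup 3, a mean of 65.1 ± 6.48 TPM.

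From the highest to the lowest mean the order was Ier3, Jun, Ier2, Junb, Dusp1, Jund, Fos, Atf3, Egr1 and Fosb. The pups' ranges overlapped between Ier2 and Junb and between Junb and Dusp1. Within each pup Ier2 stood above Junb, whereas Junb and Dusp1 changed places between the pups. The other 7 pairs of neighbours had ranges that did not overlap, with only 2 values behind each range. The place of Jund below Dusp1 depends on the Jund model. Their means differed 1.43-fold, and the shorter length of Jund in M21 would raise its TPM by a factor of 1.77. The widest steps were from Fos to Atf3, where the means differed 3.85-fold, and from Egr1 to Fosb, where they differed 22.4-fold. In all, 9 of the 10 genes stood at 1 TPM or more in both pups. The 10 together held 622 TPM in pup 1 and 727 TPM in pup 3, which is 0.0622% and 0.0727% of all TPM.

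**Figure D2:**
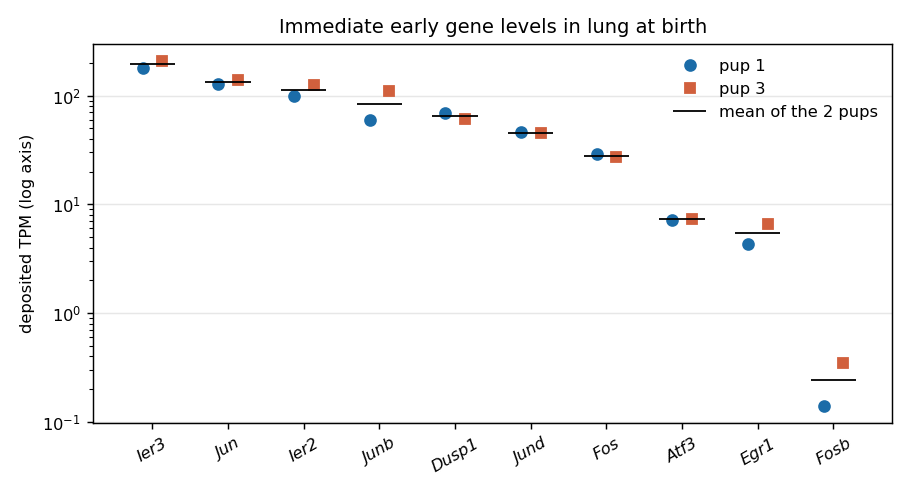
Deposited TPM (vertical axis, log scale) of the 10 immediate early genes in pup 1 (circles) and pup 3 (squares), with the mean of the 2 pups as a bar. Levels run from 193 TPM for Ier3 to 0.245 TPM for Fosb, and the pups stand visibly apart at Junb, Egr1 and Fosb.

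Every gene with several transcripts in the tables was carried mainly by a single mRNA in the deposited transcript estimates. For Fos, the full coding transcript Fos-201 held 96.25% of the gene's abundance in pup 1 and 99.47% in pup 3, and the non-coding models Fos-202 (2.87% in pup 1 and 0% in pup 3) and Fos-203 (0.87% and 0.53%) held the rest, with Fos-204 at 0% in both. Atf3-201 held 100% in both pups, although the deposited posterior mean shares were 93.24% in pup 1 and 89.95% in pup 3. Egr1-202, of 3036 bases, held 86.8% in pup 1 and 89.5% in pup 3, beside the longer Egr1-201 of 4484 bases with 13.2% and 10.5%. Fos and Atf3 were thus almost undivided, and Egr1 was split between a pair of coding models. Dusp1 was the member with intron-containing models: Dusp1-202, the spliced coding mRNA, held 89.0% in pup 1 and 85.0% in pup 3. The retained-intron models Dusp1-203 and Dusp1-204 together held 11.03% in pup 1 and 14.95% in pup 3, from 305.74 and 340.11 expected counts. Since total RNA was sequenced, such models can collect reads of unspliced Dusp1 RNA, which the estimates do not separate. The other 6 genes had 1 transcript each in the tables. For Fosb that leaves out the alternatively spliced forms, of which M21 lists 7 transcripts in all, so the truncated FosB known from brain could not be seen apart.

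**Figure D3:**
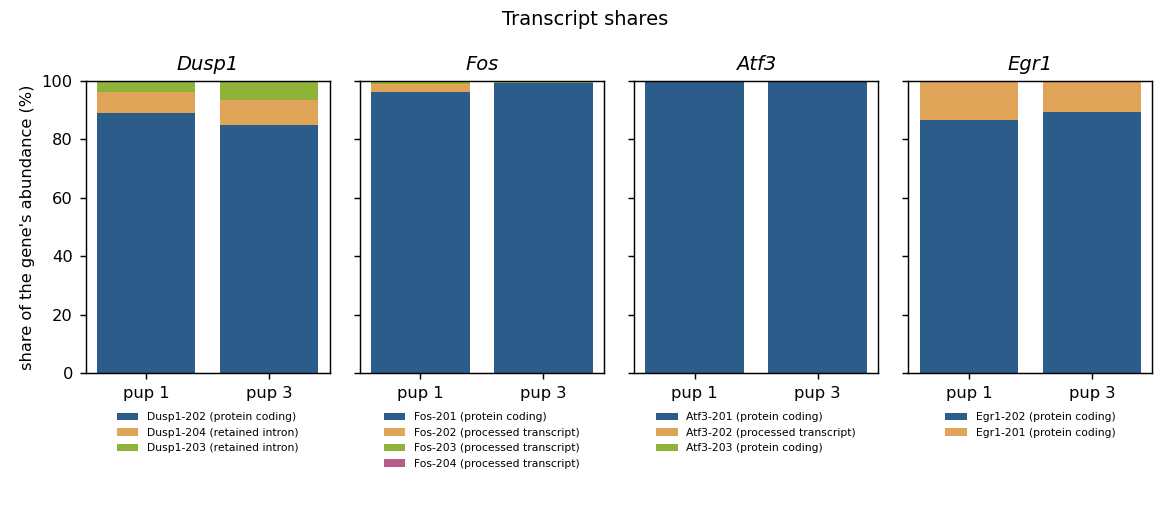
Share of each gene's abundance (vertical axis, percent) held by its transcript models in pup 1 (left bar) and pup 3 (right bar) for the 4 immediate early genes with several models. The leading coding model (lowest block) held at least 85.0% in every bar, and retained-intron models of Dusp1 reached 14.95% in pup 3.

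In M21, exons of some members overlap genes on the other strand, and whether counting used strand is not given in the sources used here. The levels are uncertain to the degree that the counted models overlap. The overlaps were taken over all M21 models. The tables hold 1 model for Junb and 3 for Dusp1, against 2 and 6 in M21. The overlaps of these genes can thus rest on models that were not counted. Exons of Jund overlap the antisense gene Gm11175, which had 1013 expected counts in pup 1 and 866 in pup 3, against 4117 and 3440 for Jund. Exons of Junb overlap Prdx2, a peroxiredoxin gene with 10020 counts (293 TPM) in pup 1 and 8865 counts (310 TPM) in pup 3. Jun overlaps the antisense gene Junos, with 122 and 89.5 counts, and Dusp1 overlaps Ergic1, with 2415 and 1915 counts. The part of these overlaps in the members' levels and ratios was not tested. The Jund model of the tables was 2878 bases long, against 1668 in M21, and division by the shorter length would raise its TPM by a factor of 1.77. Expected counts were whole numbers in both pups for 8 of the 10 genes, Junb and Dusp1 among them, the exceptions being Jun and Jund. Of the genes that overlap members, only Ergic1 had whole counts in both pups. Whether reads were divided between Jund and Gm11175 or between Jun and Junos was not tested.

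The pups were then compared gene by gene as pup 1 over pup 3, after scaling of the rounded counts (TMM). A gene was said to be past the size rule at a difference of at least 2-fold, with at least 50 counts over both libraries and a 95% counting interval that leaves out 1. With 1 library on each side there is nothing to check the difference against, so no p-value is given, and the intervals cover counting error only. All 10 genes passed the count filter, Fosb with 51 counts. Of the 10, 0 were past the rule with the higher level in pup 1, where 0.659% of 15790 tested genes were, and 1 was past it with the higher level in pup 3, where 0.741% were. That gene was Fosb, with 16 counts in pup 1 and 35 in pup 3, 2.42-fold higher in pup 3 (95% interval 1.31 to 4.69). It passed the count filter mainly through pup 3, the pup in which it is higher, so its call depends on that filter. On the log2 scale of TPM + 1 the Fosb difference was only -0.24, because both levels lie under 1 TPM.

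Junb, counted far more deeply than Fosb, was the next in size. It had 3347 counts in pup 1 and 5220 in pup 3, a log2 ratio of -0.79, or 1.73-fold higher in pup 3 (95% interval 1.65 to 1.81). A ratio as low as that was found in 1.41% of the tested genes. Egr1 had a log2 ratio of -0.50, 1.42-fold higher in pup 3 (1.25 to 1.61), and 4.51% of tested genes lay as low. At 1.5-fold, 0 members were past the rule in the direction of pup 1, where 2.28% of tested genes were, and 2 members, Junb and Fosb, in the direction of pup 3, where 2.78% were. The highest ratio was that of Dusp1, with a log2 of 0.29 and 1.23 times the pup 3 level in pup 1 (95% interval 1.17 to 1.28), a distance that 9.97% of tested genes reached. The members did not all lean the same way. Fos, at 1.10 (1.03 to 1.18), and Jund, at 1.08 (1.03 to 1.13), were slightly higher in pup 1, and Ier2, at 0.849 (0.815 to 0.884), was lower in pup 1. Jun at 0.969 and Ier3 at 0.923 lay just below 1 and moved above it with spike-in scaling, whereas Atf3 at 1.05 had an interval from 0.911 to 1.20.

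As a group the 10 log2 ratios had a median of -0.08 and a range of -1.25 to 0.29, with 4 above 0. Over all tested genes the median was 0.01, the central 68% ran from -0.23 to 0.21 and the central 95% from -0.64 to 0.60. Junb and Fosb lay outside that central 95%, and the 8 other members lay inside it. Among the 9725 tested genes with at least 1000 counts, the central 95% ran from -0.38 to 0.39, and Junb, with 8567 counts over both pups, lay outside that range too.

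**Figure D4:**
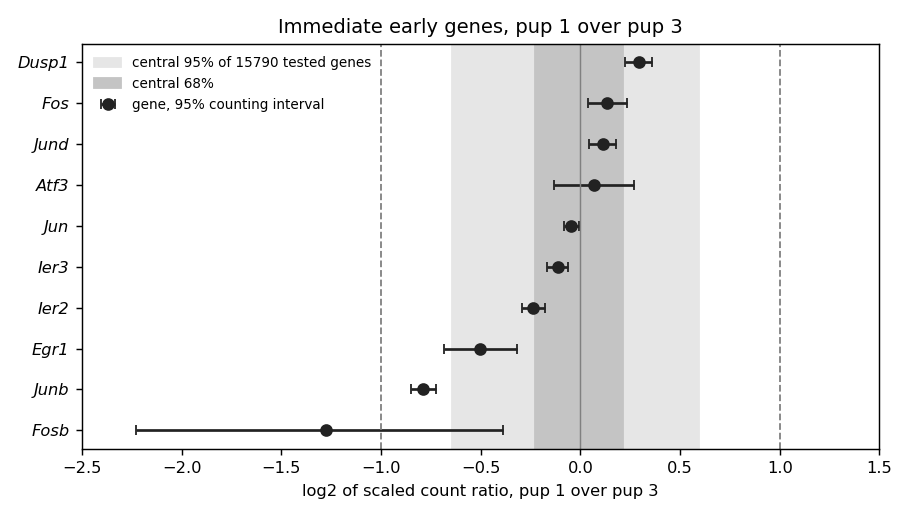
Log2 of the scaled count ratio of pup 1 over pup 3 (horizontal axis) for the 10 immediate early genes, with 95% counting intervals and dashed lines at 2-fold. Junb and Fosb fall outside the light band that holds the central 95% of 15790 tested genes, both on the side of pup 3, and Dusp1 lies highest on the side of pup 1.

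Genes that work with or respond like the members were then described from 6 lists, of 114 genes in all, of which 108 had enough counts to be tested. None of the 108 was past the 2-fold rule in either direction, beside 0.659% (higher in pup 1) and 0.741% (higher in pup 3) of all tested genes. At 1.5-fold 0 were past it toward pup 1 and 5 toward pup 3, beside 2.28% and 2.78% of all tested genes. These 5 were Bhlhe40, Nfkbia, Socs3, Tnfaip3 and Hsph1. The median log2 ratio of the 108 was -0.04, and 59 lay below 0. Arc, left out of the 108 with 46 counts, had a log2 ratio of -1.17, so the absence of 2-fold calls depends on the count filter.

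Among 21 other AP-1, ATF, MAF and CREB genes, none of the 20 tested was past either rule, and the median log2 ratio was 0.04. Atf4, the effector of the integrated stress response, was the highest at 100 TPM in pup 1 and 98.8 TPM in pup 3. Crem, a cyclic AMP response factor, had 35.8 and 36.4 TPM and the ATF2 relative Atf7 had 32.8 and 37.6 TPM. All 3 exceeded Fos in both pups. At the low end stood Fosl1 with 0.40 and 0.61 TPM, Batf2 with 0.90 and 0.82 TPM, and the AP-1 repressor Jdp2 with 1.21 and 0.91 TPM.

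The 20 other immediate early transcription factors spanned a wide range of levels, and the median log2 ratio of the 16 tested was -0.14, with 13 below 0. Cebpb had 94.9 TPM in pup 1 and 108 TPM in pup 3, Cebpd 101 and 100 TPM, and Klf6 77.3 and 84.3 TPM. These are regulators of inflammation and of injury responses in many epithelia. Egr3, Egr4 and the neuronal factor Npas4 were close to undetected. Egr3 had 2 counts in pup 1 and 3 in pup 3, Npas4 had 4 and 1, and Egr4 had 0 in both, which allows up to 0.0711 CPM in pup 1 and 0.0810 CPM in pup 3. Bhlhe40, a basic helix-loop-helix repressor tied to the clock and to hypoxia, had 12.9 TPM in pup 1 and 23.5 TPM in pup 3, from 1230 and 1913 counts, a log2 ratio of -0.79.

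Of the 30 other immediate early effectors, 29 were tested, with a median log2 ratio of -0.08 and 15 below 0. The antiproliferative gene Btg2 had 162 TPM in pup 1 and 156 TPM in pup 3, and Zfp36l1, whose protein binds AU-rich elements, had 108 and 128 TPM. The list's lowest were Arc, with 15 counts in pup 1 and 31 in pup 3, Ptgs2, the inducible cyclooxygenase, with 1.35 and 1.62 TPM, and Ier5l with 3.19 and 3.58 TPM. At the 1.5-fold rule 3 of the 29 were past it toward pup 3, beside 2.78% of all tested genes. Socs3, which inhibits JAK-STAT receptors, had 24.2 TPM in pup 1 and 50.4 TPM in pup 3, from 1899 and 3364 counts, a log2 ratio of -0.97, and was past 2-fold where library totals or TPM + 1 set the ratio. Tnfaip3, the NF-κB inhibitor A20, had 4.32 TPM in pup 1 and 8.45 TPM in pup 3, a log2 ratio of -0.90. Nfkbia, which encodes IκBα, had 119 TPM in pup 1 and 191 TPM in pup 3, a log2 ratio of -0.60. All of these ratios come from the same pair of libraries.

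The remaining lists of regulators lay close to 0. The 10 dual-specificity phosphatases other than Dusp1 had a median log2 ratio of -0.01, with 0 past either rule in either direction. Dusp14, at 58.7 TPM in pup 1 and 61.1 TPM in pup 3, Dusp6, the ERK phosphatase, at 42.8 and 53.8 TPM, and Dusp7, at 24.7 and 23.1 TPM, were the highest. The range of Dusp14 overlapped that of Dusp1. Dusp9 had 1.91 and 2.12 TPM, Dusp2 3.20 and 3.82 TPM, and Dusp8 4.82 and 5.34 TPM. The 25 upstream factors and kinases had a median of -0.03, again with 0 past either rule. The kinases Mapk3 (ERK1), with 155 TPM in pup 1 and 154 TPM in pup 3, and Map2k2, with 103 and 105 TPM, led the list. Srf, the serum response factor itself, had 3.04 TPM in pup 1 and 3.63 TPM in pup 3, Elk1, its ternary complex partner, 5.05 and 4.56 TPM, and the kinase Rps6ka5 1.49 and 2.05 TPM.

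Stress and marker genes that varied between the same libraries are given beside these ratios, and their part in the results was not tested. The 10 heat shock genes had a median log2 ratio of -0.19, with 7 below 0 and a range of -0.71 to 0.70. Hspa8, the constitutive HSP70, had 825 TPM in pup 1 and 1247 TPM in pup 3, Hsp90aa1 had 233 and 307 TPM, and Dnaja1 had 247 and 273 TPM. Hspb1 went the other way, with 220 TPM in pup 1 and 176 TPM in pup 3, a log2 ratio of 0.40. Hsph1, a nucleotide exchange factor for HSP70, was past the 1.5-fold rule with 6.14 TPM in pup 1 and 10.7 TPM in pup 3, a log2 ratio of -0.71. The stress-induced Hspa1a had 7.19 and 10.5 TPM and Hspa1b 0.46 and 0.30 TPM, which are uncertain one by one because the genes are near-identical copies. Of the markers of heart, liver, skeletal muscle and blood cells, 12 of 13 were tested, with 8 below 0, a median log2 ratio of -0.20 and a summed level of 25035 TPM in pup 1 and 30184 TPM in pup 3. The 9 lung markers had a median of 0.07, with 3 below 0. Alb, the liver albumin gene, was past the 1.5-fold rule toward pup 1 (2.77 TPM in pup 1 and 1.87 TPM in pup 3), and the T cell gene Cd3e was near 0 in both (0.14 and 0.16 TPM). The share of counts in mitochondrial genes was 2.08% in pup 1 and 1.97% in pup 3.

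**Figure D5:**
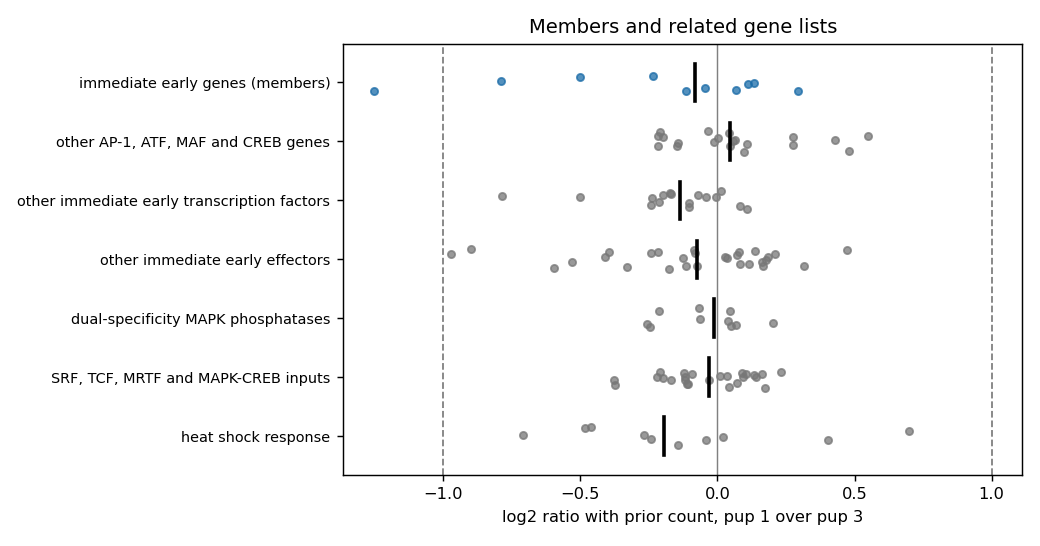
Log2 ratio with prior count, pup 1 over pup 3 (horizontal axis), of each tested gene in the immediate early genes and in 6 related lists, with a bar at each list's median and dashed lines at 2-fold. The medians run from -0.19 for heat shock genes to 0.04 for other AP-1, ATF, MAF and CREB genes, and Fosb is the only point past 2-fold. Fosb passed the count filter with 51 counts, and Arc, with 46 counts and a log2 ratio of -1.17, is not drawn.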

How the data were processed

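Tables of genes and transcripts were used as the authors deposited them. Per the file headers they hold expected counts, deposited TPM and FPKM, both scaled for effective length, and for transcripts a deposited isoform percent (IsoPct), with posterior means beside them. The text files deposited with the libraries name assembly mm10 and annotation M4. Aligner, counter and use of strand: not given in the sources used here. Names and coordinates came from GENCODE M21, also on mm10.

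Levels are mean ± SD of TPM over the pups (n = 2), and P-values were not computed. For ratios, whole-number roundings of the expected counts were divided by TMM effective sizes (edgeR 4.0.16, R 4.3.3), whose ratio was 1.11, pup 1 over pup 3. Log2 ratios carry a prior count of 0.5, and intervals are exact conditional binomial 95% intervals. Without molecular identifiers, reads are not independent molecules. DESeq2 1.42.0 size factors were an alternative. The size rule was tested on simulated data in which every planted change was larger than 2-fold. That run does not test calls near 2-fold, such as that of Fosb. The members and lists were chosen with earlier results of these data known. The naming rule took all 10 members, and from each related list the 3 highest and up to 3 lowest by mean TPM and those past the rule. Genes past only the 1.5-fold rule, Fosl2, Hspa1a, Hspb1 and some markers were named besides. Some genes that the rule takes are not reported here.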

Additional observations from a re-analysis of the deposited data

How the results depend on the processing

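The number of immediate early genes past the 2-fold rule was 0 toward pup 1 under every alternative run. Toward pup 3 it was 1 (Fosb) in all but 2 of them: it was 0 with deposited TPM + 1, where low genes shrink by construction, and 2 with a 1.5-fold rule. For the related genes it was 0 toward pup 1 throughout, and toward pup 3 it was 0 except with library totals and with TPM + 1 (1 each, Socs3), with at least 10 counts or no filter (1 each, Arc, which enters with 46 counts) and with a 1.5-fold rule (5). Over all genes the calls toward pup 1 and pup 3 were 104 and 117, against 31 and 54 with TPM + 1, 161 and 82 with spike-in scaling, 271 and 319 with at least 10 counts, 321 and 380 without a filter, and 360 and 439 at 1.5-fold. Spike-in scaling moved the median of all genes by 0.14 on the log2 scale, but it rests on 317 spike-in counts in pup 1 and 316 in pup 3, and the 95% counting interval of that shift ran from -0.09 to 0.37. Under it Jun (0.10) and Ier3 (0.03) had log2 ratios above 0, and with TPM + 1 Atf3 had -0.02. Junb, Egr1, Fosb and Ier2 stayed below 0, and Fos, Jund and Dusp1 above 0, under every scaling run. Junb ran from -0.86 (TPM + 1) to -0.65 (spike-ins). With 1 pup alone the order of levels held 10 of 10 places in pup 3 and 8 in pup 1, where Dusp1 stood above Junb, and the log2 ratio of Fos to Jun transcripts ran from -3.04 to -2.70. The leading transcript held over 50% for 10 of 10 genes under each alternative. Only Fos, Atf3, Egr1 and Dusp1 could vary, as the other genes have 1 transcript each in the tables and stand at 100% by construction. The ratio between the pups has 1 library on each side, so neither can be left out. No paired analysis was possible because there is 1 group. Depth limits Fosb most, with 16 and 35 counts. It passed the filter of 50 counts with 51, mainly through the 35 in pup 3. Lower count filters could not remove its call, and posterior mean counts left its log2 ratio at -1.25, so these runs do not test it.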
